A study of Mus musculus with 6 samples.

Results

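The 8 transcription factor genes Pou3f4, Irx1, Irx2, Foxa2, Pax6, Isl1, Neurod1 and Nkx2-2 were taken by gene symbol from the 55487 genes of the count table, because they encode regulators of α cell identity and of the glucagon gene. Each symbol named 1 gene, and all 8 were among the 15082 genes with enough counts to test. The cells were αTC1, a murine glucagonoma line used as a model of the pancreatic α cell. The columns of both groups are labelled WT, and no genetic change is given for either group. In 1 group of 3 libraries the cells had received G786-1089, which the series describes as an inhibitor of the splicing factor SMNDC1, and in the other group of 3 they had received the solvent DMSO. Dose and duration of the treatment are not given in the sources used here. Libraries are named by the letters A, B and C of their columns, and no source ties a letter to a replicate number. For its cell culture work in general, the study states that each replicate was divided from a shared batch of cells among the treatments and handled as a set. The sources do not say which columns formed such a set here, nor whether replicates were independent cultures, so p-values measure the spread between these libraries, which may be technical.

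Glucagon-producing α cells are one of the endocrine cell types of the pancreatic islet. Their identity rests on transcription factors that bind the promoter of the glucagon gene Gcg and the genes for processing and secreting the hormone. Most of the 8 are homeodomain proteins: Isl1 of the LIM class, Pax6 with an additional paired domain, Nkx2-2 of the NK class, Pou3f4 of the POU class and Irx1 and Irx2 of the Iroquois class. Foxa2 is a forkhead protein that can bind DNA in closed chromatin, and Neurod1 is a basic helix-loop-helix protein that binds E-boxes together with an E protein. Isl1, Pax6, Foxa2, Neurod1 and Nkx2-2 also act in β cells, whereas Irx1, Irx2 and Pou3f4 are used as α cell markers within the islet.

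Totals ran from 59070705 to 94747943 counts per library, and every G786-1089 library was deeper than every DMSO library. Markers were used to check the label of the cells. Of 8 α cell markers, 7 were tested. The summed α cell markers ran from 4275 to 4972 CPM with G786-1089 and from 22623 to 25229 CPM with DMSO, most of it Gcg. The 8 β cell markers summed to 21.7 to 44.4 CPM with G786-1089 and 46.2 to 64.4 CPM with DMSO. The largest part was G6pc2, with 11.9 to 37.3 CPM and 35.6 to 53.7 CPM. Nkx6-1 had 4.7 to 9.8 CPM and 8.62 to 14.6 CPM, and both genes were named after their values were seen. Ins1 and Pdx1 had 0 counts in every library, which allows up to 0.03 to 0.0552 CPM, depending on the library. Ins2 had 0.0231 to 1.4 CPM with G786-1089 and 0 to 0.773 CPM with DMSO. Iapp had 0 to 0.401 CPM and 0 to 1.72 CPM, and Ins2 and Iapp were likewise named after their values were seen. Markers of δ, PP and ε cells, of acinar and ductal cells and of fibroblasts, endothelium and immune cells each summed to at most 1.54 CPM in any library. CPM, the counts of a gene relative to the library's total, were scaled between libraries by the trimmed mean of M-values (TMM), and limits from counts cover counting error only. In such bulk libraries, fewer cells expressing a gene and less RNA of it per cell cannot be told apart.

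Of the 8 factors, 3 fell with G786-1089 and 0 rose at an adjusted p under 0.05 in edgeR's quasi-likelihood test: Neurod1, Isl1 and Irx2. Over all tested genes, 7.8% were called lower and 14.8% were called in either direction. With a replicate block by column letter, 2 of the 8 were called, Neurod1 and Isl1, beside 8.17% of all tested genes. At an unadjusted p under 0.05, 5 of the 8 were lower, with Nkx2-2 and Foxa2 in addition, beside 13.5% of all tested genes. Nkx2-2, Foxa2, Pax6 and Pou3f4 had negative and Irx1 a positive log2 fold change, none of them past the threshold. The median log2 fold change of the 8 was -0.68, beside 0.041 for all tested genes. The 3 G786-1089 libraries lay below the 3 DMSO libraries for 6 of the 8 factors, as they did for 18.5% of all tested genes. Under a stricter filter on size, an adjusted p no higher than 0.1 together with a log2 fold change of 1 or more in either direction, Neurod1 and Nkx2-2 passed, 2 of 8 beside 10.4% of all tested genes.

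**Figure D1:**
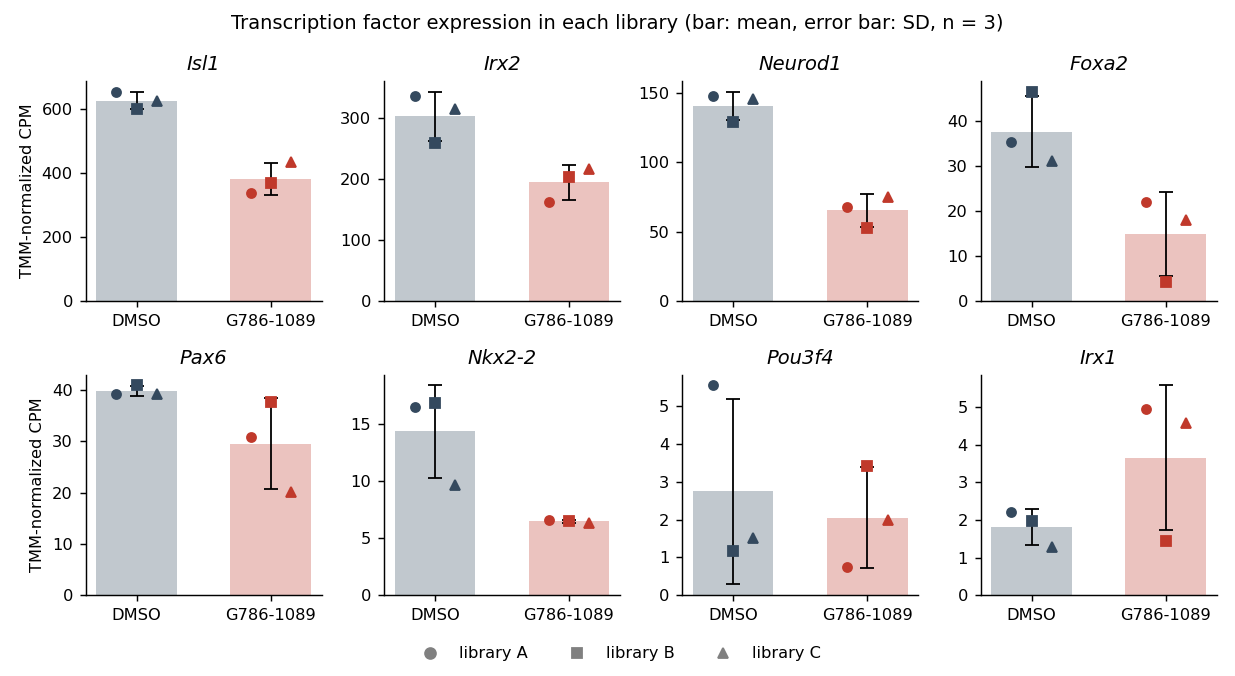
TMM-normalized CPM of the 8 factors in each library, with bars for the mean, error bars for the SD (n = 3) and 1 symbol per library letter. For Isl1, Irx2, Neurod1, Foxa2, Pax6 and Nkx2-2 every G786-1089 library sits below every DMSO library, while Pou3f4 and Irx1 overlap.

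Isl1, a LIM homeodomain factor needed for islet cell differentiation and an activator of Gcg, was the factor with the highest expression. The gene (ENSMUSG00000042258) lies on the reverse strand of chromosome 13 of GRCm38 from 116298281 to 116309689. It had 655, 602 and 624 CPM in DMSO libraries A, B and C and 338, 371 and 436 CPM in G786-1089 libraries A, B and C. The highest G786-1089 library was thus well below the lowest DMSO library, and the spread was small in both groups, with 627 ± 26.9 CPM for DMSO and 381 ± 50.3 for G786-1089 (SD, n = 3 each). The log2 fold change was -0.72 (standard error 0.11, 95% interval -0.97 to -0.47, edgeR adjusted p = 0.00659), a level 1.64-fold lower with the inhibitor. The call held with each library left out in turn (log2 fold changes of -0.82 to -0.64, edgeR adjusted p of at most 0.0333).

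Neurod1 (ENSMUSG00000034701, chromosome 2 from 79452521 to 79456751, reverse strand) showed the smallest p-value of the 8. It had 148, 129 and 145 CPM in the DMSO libraries against 68.1, 52.6 and 75.2 CPM in the G786-1089 libraries, so that no value came near those of the other group. Its means were 140.6 ± 10.2 and 65.3 ± 11.6 CPM (SD, n = 3 each). The log2 fold change of -1.11 (standard error 0.16, 95% interval -1.48 to -0.73, edgeR adjusted p = 0.00599) is a 2.15-fold lower level. Leaving out each library gave -1.22 to -0.97, with an edgeR adjusted p of at most 0.0304. Exons of Neurod1 share 7.37% of their bases with Cerkl on the same strand and 5.64% with ENSMUSG00000097843 on the opposite strand, which was not analysed here. Counting ignored strand. Cerkl had 2.7 to 3.3 CPM with DMSO and 0.495 to 1.77 CPM with G786-1089, small beside Neurod1.

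Irx2 (ENSMUSG00000001504, chromosome 13 from 72628820 to 72634198, forward strand) belongs to the Iroquois class and is expressed in α but not β cells of the islet. The DMSO libraries had 336, 258 and 315 CPM and the G786-1089 libraries 162, 204 and 217 CPM. The groups did not overlap, but DMSO library B was close to G786-1089 library C. The log2 fold change was -0.64 (standard error 0.15, 95% interval -0.99 to -0.29, edgeR adjusted p = 0.032), a 1.56-fold lower level. This call was the least stable of the 3. It held without DMSO library B (edgeR adjusted p = 0.0397) and was lost without any one of the other libraries, with an edgeR adjusted p of up to 0.103 and log2 fold changes of -0.75 to -0.52 over the 6 fits. It was also lost with a replicate block by column letter (edgeR adjusted p = 0.0856), without TMM factors (edgeR adjusted p = 0.105) and in limma-trend on log2(FPKM + 1) of all genes (adjusted p = 0.0666).

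The sequences upstream of annotated starts of these genes and of Gcg are shown, with short motifs for the classes of factor among the 8. Where the transcripts start in these cells was not measured. RefSeq starts (GRCm38.p6) were at hand for 7 of the 8 factors and for Gcg, and the window searched is the 250 bases before a start, of which the part outside annotated exons is printed. Capitals mark matches, on either strand, to TAAT (core of homeodomain sites), CATCTG (an E-box bound by NeuroD), AAGTG (core of Nkx2 sites), TGTTTAC (Foxa) and ACANNTGT (Iroquois); matches may overlap. Each sequence runs 5′ to 3′ toward the gene.
Gcg, chr2:62483654-62483903, reverse strand: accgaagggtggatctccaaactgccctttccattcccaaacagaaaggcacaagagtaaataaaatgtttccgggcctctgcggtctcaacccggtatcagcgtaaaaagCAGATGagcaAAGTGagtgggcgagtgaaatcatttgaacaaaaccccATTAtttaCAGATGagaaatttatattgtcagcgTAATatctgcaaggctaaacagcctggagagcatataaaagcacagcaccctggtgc
Isl1, chr13:116309690-116309938, reverse strand: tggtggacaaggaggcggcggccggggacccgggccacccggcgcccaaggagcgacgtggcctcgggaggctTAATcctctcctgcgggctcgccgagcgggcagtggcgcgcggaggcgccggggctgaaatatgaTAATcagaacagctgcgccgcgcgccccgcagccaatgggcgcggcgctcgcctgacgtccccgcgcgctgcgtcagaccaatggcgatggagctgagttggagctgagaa
Irx2, chr13:72628570-72628819, forward strand: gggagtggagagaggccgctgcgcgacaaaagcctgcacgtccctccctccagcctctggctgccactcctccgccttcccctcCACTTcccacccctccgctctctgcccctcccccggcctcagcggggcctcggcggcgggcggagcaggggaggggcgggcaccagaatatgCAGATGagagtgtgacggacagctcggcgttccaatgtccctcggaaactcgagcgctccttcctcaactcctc
Neurod1, chr2:79456752-79456886, reverse strand: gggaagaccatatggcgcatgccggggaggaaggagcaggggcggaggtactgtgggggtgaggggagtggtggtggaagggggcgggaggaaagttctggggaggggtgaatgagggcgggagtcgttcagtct

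The Gcg window held TAAT, or ATTA as its reverse, at positions -91 and -57 from the start, the NeuroD E-box at -139 and -83, and AAGTG at -129, counted from the first base of the match. Of 32536 windows of the same length, 54.8% held TAAT, 14.4% the E-box and 40.6% AAGTG. The Isl1 window had TAAT at -177 and -112, and the Irx2 window had AAGTG at -166 and the E-box at -74. The E-box was also found in the Nkx2-2 window, at -220. The Neurod1 window held none of the motifs over its full 250 bases. Matches to TGTTTAC, present in 3.2% of all windows, were found in none of those of Gcg and the 7 factors, and ACANNTGT, present in 6.3%, only in 1 of the Pax6 windows. These matches are descriptions of the letters; binding was not measured.

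Nkx2-2, an NK homeodomain factor of endocrine differentiation (ENSMUSG00000027434, chromosome 2 from 147177546 to 147194243, reverse strand), was just outside the threshold. It had 16.6, 16.9 and 9.7 CPM in DMSO libraries A, B and C and 6.58, 6.49 and 6.34 CPM in the G786-1089 libraries. The inhibitor libraries were nearly the same and all below the lowest DMSO library, C, which stood apart from the other two. The log2 fold change was -1.15 (standard error 0.31, 95% interval -1.90 to -0.41, edgeR adjusted p = 0.0541). Without DMSO library C it was -1.37 with an edgeR adjusted p of 0.0479, and with any other library left out the adjusted p was 0.123 to 0.167. Its exons share 9.67% of their bases with the antisense gene Nkx2-2os, which had 0 counts in every library.

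Foxa2 (ENSMUSG00000037025, chromosome 2 from 148042877 to 148046969, reverse strand), a forkhead factor that acts on Gcg and on α cell maturation, had the lowest log2 fold change of the 8 and one of the widest spreads. It had 35.2, 46.4 and 31.1 CPM with DMSO and 22, 4.33 and 18.1 CPM with G786-1089. All inhibitor libraries were lower than all DMSO libraries, and library B, the deepest of the 6, was far below A and C. Its log2 fold change came to -1.34 (standard error 0.56, 95% interval -2.67 to -0.01, edgeR adjusted p = 0.174). Without G786-1089 library B it was -0.91 (edgeR adjusted p = 0.0894). Foxa2 lies 848.6 kb from Nkx2-2 on the same chromosome.

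Pax6 (ENSMUSG00000027168, chromosome 2 from 105668900 to 105697364, forward strand), a paired and homeodomain factor without which few α cells form, was almost constant among DMSO libraries, with 39.4, 41 and 39.3 CPM. The G786-1089 libraries had 31, 37.6 and 20.1 CPM. They were all lower, with library B closest to the DMSO values and library C lowest. Pax6 differed by -0.43 on the log2 scale (standard error 0.25, edgeR adjusted p = 0.315), and the 95% interval of -1.02 to 0.15 leaves room for a 2.02-fold lower or a 1.11-fold higher level. The value was -0.22 without G786-1089 library C, -0.64 without G786-1089 library B and -0.74 with an offset for gene length (edgeR adjusted p = 0.0962). Pax6 has the most complex annotation of the 8, with 26 transcripts of up to 14 exons whose counts were summed here.

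Irx1 (ENSMUSG00000060969, chromosome 13 from 71957921 to 71963723, reverse strand), the paralog of Irx2 665 kb away, was the 1 factor with a positive log2 fold change. It had 2.2, 1.97 and 1.29 CPM with DMSO and 4.95, 1.45 and 4.59 CPM with G786-1089, where library B fell within the DMSO range and A and C above it. The log2 fold change was 1.01 (standard error 0.62, 95% interval -0.47 to 2.48, edgeR adjusted p = 0.351), and 1.39 without library B of G786-1089 (edgeR adjusted p = 0.164). In FPKM, which are scaled per kilobase, Irx1 was 0.726%, 0.845% and 0.453% of Irx2 in the DMSO libraries and 3.37%, 0.785% and 2.34% in the G786-1089 libraries. These shares also overlap. With 3 libraries against 3, an exact permutation test over libraries cannot go below p = 0.1, so none was used for single values.

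Pou3f4 (ENSMUSG00000056854, chromosome X from 110814280 to 110817207, forward strand), a POU factor that binds the Gcg promoter, was with Irx1 at the lowest level of the 8. It had 5.56, 1.17 and 1.51 CPM with DMSO and 0.749, 3.42 and 1.98 CPM with G786-1089, from 56 to 343 counts. DMSO library A was highest and the groups overlapped throughout. Between groups it differed by -0.42 on the log2 scale (standard error 0.85, 95% interval -2.45 to 1.61, edgeR adjusted p = 0.804). Without DMSO library A the sign turned to 0.61 (edgeR adjusted p = 0.751), so a change was not detectable in either direction. Pou3f4 is the 1 factor of the 8 whose annotation holds a single exon; 81.8% of tested genes have an annotated transcript with more.

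**Figure D2:**
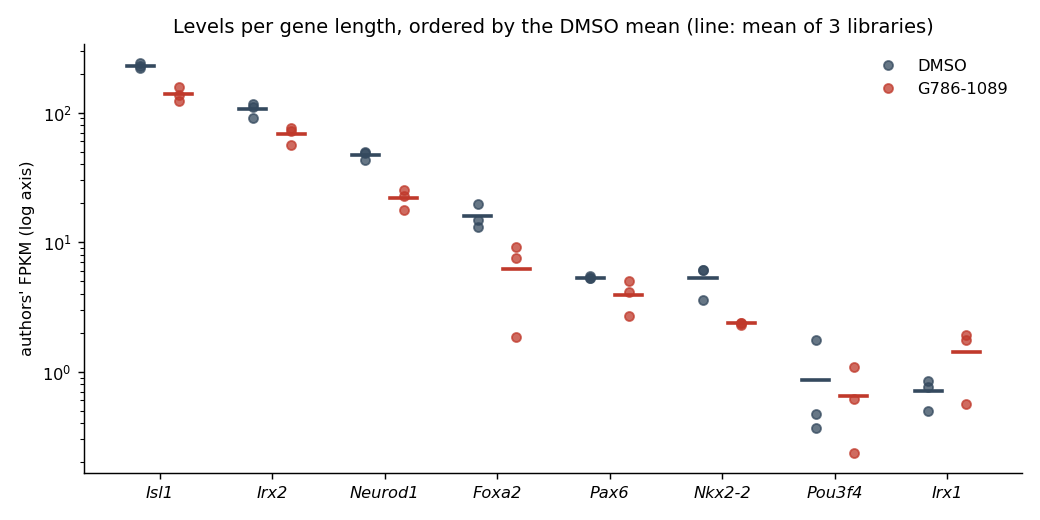
Authors' FPKM of the 8 factors on a log axis, 1 point per library with a line at the mean of 3, ordered by the DMSO mean. Levels run from 229 FPKM for Isl1 to 0.704 for Irx1 with DMSO, and the upper 6 keep their order with G786-1089.

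Per length, the DMSO levels formed a ladder from Isl1 with 229 ± 10 FPKM over Irx2 with 106 ± 14.2, Neurod1 with 47.3 ± 3.5 and Foxa2 with 15.8 ± 3.31 (SD, n = 3 each). Pax6 with 5.31 ± 0.116 and Nkx2-2 with 5.24 ± 1.47 FPKM followed, and then Pou3f4 with 0.861 ± 0.765 and Irx1 with 0.704 ± 0.183. Ranges of neighbours in this order did not touch, except between Pax6 and Nkx2-2 and between Pou3f4 and Irx1. With G786-1089 the first 6 stood in the same order, from 139 ± 18.1 FPKM for Isl1 to 2.35 ± 0.0478 for Nkx2-2, and Irx1 (1.41 ± 0.738) came before Pou3f4 (0.644 ± 0.423). Here Pax6 and Nkx2-2 were apart, and the ranges of Foxa2 and Pax6 overlapped, as did those of Irx1 and Pou3f4. The place of Pax6 depends on the length used. Its annotated exons, joined over transcripts, span 11694 bases, against 2370 for Foxa2 and 2875 for Nkx2-2. In CPM, the DMSO means were 39.9 for Pax6, 37.6 for Foxa2 and 14.4 for Nkx2-2. The 3 factors called lower by edgeR were those with the highest level in both groups. Nkx2-2 and Foxa2 had lower log2 fold changes than these 3 (-1.15 and -1.34) with larger standard errors (0.31 and 0.56). DESeq2 called both of them in addition.

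The relative spread followed the level only in part. For Isl1 the coefficient of variation between libraries was 4.29% with DMSO and 13.2% with G786-1089, for Irx2 13.3% and 14.6%, and for Neurod1 7.23% and 17.8%. Foxa2 had 21.1% and 62.7%, and Pou3f4 88.9% and 65.3%. Pax6 and Nkx2-2 went in opposite ways, the first with 2.38% and 29.9% and the second with 28.2% and 1.85%. GC content of the longest transcript was 43.6% for Neurod1 and 45.7% for Isl1, 49.3% for Pax6, and between 51.8% and 61.7% for the other 5, beside a median of 49.4% for tested genes. With an offset for GC content the same 3 factors were called (edgeR adjusted p of 0.00468, 0.00681 and 0.0308 for Neurod1, Isl1 and Irx2). In that fit 15% of all tested genes were called.

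**Figure D3:**
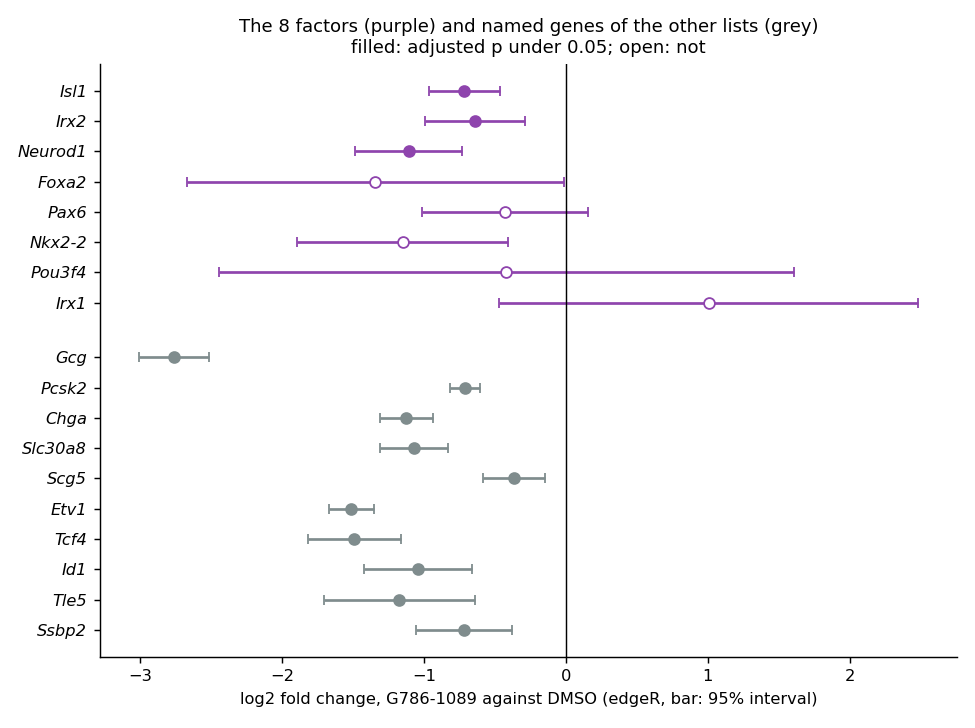
Log2 fold changes of the 8 factors and of named genes of the other lists, with 95% intervals from edgeR (n = 3 libraries each); filled points have an adjusted p under 0.05. Intervals of Isl1, Irx2, Neurod1 and Nkx2-2 lie well below 0, that of Foxa2 reaches -0.01, and those of Pax6, Pou3f4 and Irx1 cross 0.

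A list of 12 genes of glucagon production and secretion was also described, chosen with earlier results of these data known. Whether the factors act on these genes here was not tested. Of the 12, 11 were tested, 5 fell and 0 rose, with a median log2 fold change of -0.71. Over all tested genes, 7.8% were called lower and 14.8% in either direction, with a median of 0.041. Gcg itself, on chromosome 2, had 20242, 20448 and 22881 CPM with DMSO and 3603, 2832 and 2941 CPM with G786-1089, a log2 fold change of -2.76 (standard error 0.10, edgeR adjusted p = 0.000102). That is a 6.78-fold lower level (95% interval 5.71 to 8.05), and the interval lies beyond those of Isl1 (1.38 to 1.95), Neurod1 (1.66 to 2.79) and Irx2 (1.22 to 1.99). The interval of Gcg overlaps that of Foxa2 (1.01 to 6.38). Pcsk2, the convertase that cuts proglucagon, fell 1.64-fold, with a log2 fold change of -0.71 (edgeR adjusted p = 0.00033). Chga, a granin of secretory granules, had -1.12 (edgeR adjusted p = 0.000412) and Slc30a8, a zinc transporter of the granules, -1.07 (edgeR adjusted p = 0.0012). Scg5, the chaperone of Pcsk2, had -0.36 (edgeR adjusted p = 0.0437) and lost its call without any of 5 of the libraries, with an edgeR adjusted p of up to 0.136. The call was also lost with the replicate block (edgeR adjusted p = 0.123), and Scg5 was at -0.16 without TMM factors (edgeR adjusted p = 0.289) and at -0.15 with an offset for gene length (edgeR adjusted p = 0.374).

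Among 38 other transcription factors of islet and pancreas, 16 were tested and 17 had 0 counts in all libraries, among them Pax4, Pdx1, Foxa1, Foxa3 and Neurog3. Only Etv1 was called, 1 of the 16 tested, beside 14.8% of all tested genes. This ETS factor fell from 1712 ± 8.43 to 600 ± 45.3 CPM (SD, n = 3 each), a log2 fold change of -1.51 (standard error 0.07, edgeR adjusted p = 0.000107). The tested genes of this list had a median of -0.40, with 10 below and 6 above 0.

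Structural relatives of the 8 were mostly silent: of 30 genes of their families, 16 had 0 counts in every library and 8 were tested. Of these 8, 0 were called by edgeR (0 also at an unadjusted p under 0.05), beside 14.8% of all tested genes. Their log2 fold changes ran from -2.21 to 3.03. Neurod6 was the relative with the highest level (30.9 to 50.9 CPM with DMSO, 29 to 41.4 with G786-1089), named after its values were seen. Its log2 fold change was -0.32 (edgeR adjusted p = 0.464). Of the Iroquois genes other than Irx1 and Irx2, Irx3 and Irx5 were tested, and both were likewise named after the fact. They had log2 fold changes of 1.73 (standard error 0.97) and 3.03 (standard error 1.61) and overlapping groups, with edgeR adjusted p-values of 0.304 and 0.28.

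Of 31 genes for cofactors and partners of the factors, 29 were tested, 4 fell and 0 rose, with a median log2 fold change of -0.16. Over all tested genes, 7.8% were called lower and 14.8% in either direction. Of the 4 called genes, Tcf4, an E protein of the kind that pairs with Neurod1, fell most. It went from 151 ± 12.3 to 53.7 ± 7.17 CPM (SD, n = 3 each), with a log2 fold change of -1.49 (edgeR adjusted p = 0.0012). The other E proteins, Tcf3 and Tcf12, added here after their values were seen, had 0.07 and 1.01 and were not called (edgeR adjusted p = 0.893 and 0.193). Id1, which binds E proteins and keeps them from DNA, had -1.04 (edgeR adjusted p = 0.00769). Tle5, a short member of the Groucho family of corepressors, had -1.17 (edgeR adjusted p = 0.0168). Ssbp2, which binds the Ldb adaptors of LIM homeodomain factors such as Isl1, had -0.72 (edgeR adjusted p = 0.0196). The calls of Tle5 and Ssbp2 were each lost on leaving out some single libraries, with an edgeR adjusted p of up to 0.0683 and 0.0633. Both were also lost with the replicate block (edgeR adjusted p = 0.0688 and 0.0661), and that of Ssbp2 without TMM factors (edgeR adjusted p = 0.0632).

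**Figure D4:**
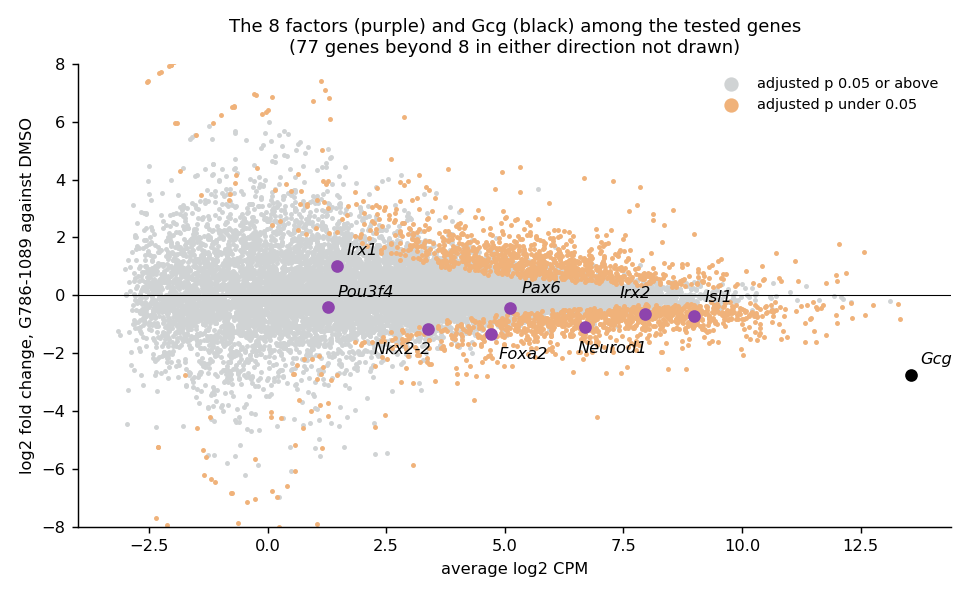
Log2 fold change against average log2 CPM for the tested genes, with the 8 factors in purple and Gcg in black; orange points have an adjusted p under 0.05. Isl1, Irx2 and Neurod1 lie among called genes of high level, whereas Irx1 and Pou3f4 lie at a level where the spread of fold changes is wide.

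The genes whose log2 CPM over the 6 libraries was most like that of Neurod1 were Gm13493, Hmgn5 and Kif2c, with Pearson's r of 0.999, 0.998 and 0.996, and those most like Isl1 were Atp5e, Pfn2 and Lgi1, with 0.998 each. In all, 21 and 17 of the 7899 other genes at an average log2 CPM of at least 3 exceeded 0.99. All points come from the same 6 libraries in 2 groups, and each of these genes had a negative log2 fold change, from -1.75 for Hmgn5 to -0.55 for Atp5e.

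**Figure D5:**
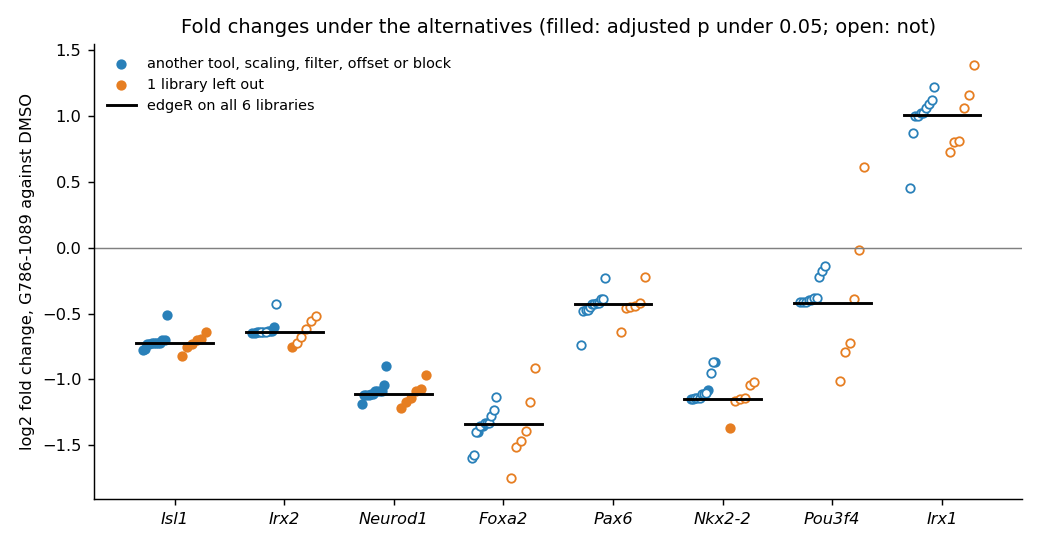
Log2 fold changes of the 8 factors with all 6 libraries in edgeR (line), under another tool, scaling, filter, offset or block (blue) and with 1 library left out (orange); filled points have an adjusted p under 0.05, and glmTreat, under which none of the 8 was called, is not drawn. Isl1 and Neurod1 are filled in all the settings drawn, Irx2 is filled in part, and Pou3f4 alone has points on both sides of 0.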

How the data were processed

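RNA from 6 αTC1 libraries (Smart-seq2, not strand-specific) was sequenced. The authors aligned reads to GRCm38 with STAR and deposited whole-number counts per gene, counted irrespective of strand and without normalization, and FPKM values made from these counts; how the FPKM were scaled is not given in the sources used here, though the ratio of count to FPKM was 1 constant per gene times 1 factor per library. The submitters' processing notes name Picard 2.19.2 and STAR 2.7.9a.

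Counts were tested in R 4.3.3 with edgeR 4.0.16: filterByExpr (minimum count 10, minimum total 15), TMM, quasi-likelihood F test of G786-1089 against DMSO without covariates, and Benjamini-Hochberg adjustment over all 15082 tested genes, with calls at an adjusted p under 0.05. Standard errors are the absolute log2 fold change over the square root of F, and 95% intervals use edgeR's total degrees of freedom. Of counts from 1 to 10, 78.1% were even, so counts are not independent molecules and limits from counts cover counting error only. A count of 0 was given a limit of 3 counts. FPKM were used for levels between genes.

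Of the 55487 genes, 55141 matched GENCODE vM21 by identifier, which gave exons, overlaps and GC content. Upstream sequences come from RefSeq (GRCm38.p6). The members and gene lists were chosen with earlier results of these data known. Named are the 8 factors, Gcg, up to 6 called genes of each list with the smallest p, genes sharing exon bases with a factor, and the 3 genes most correlated with each of the 2 factors of smallest p; others are said to be named after their values were seen, or illustrate a list. Some genes that this rule also names are not reported here. As alternatives, tests were repeated with DESeq2 1.42.0, with RLE factors or bare library totals, other filters, limma-trend (limma 3.58.1) on log2(FPKM + 1) or log2(FPKM + 0.1), offsets for gene length, thinned counts, a replicate block by column letter, each library left out and glmTreat; offsets for GC content were chosen after seeing the data. Scripts were tested on simulated data.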

Additional observations from a re-analysis of the deposited data

How the results depend on the processing

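At an adjusted p under 0.05, 2230 genes were called by edgeR, 3667 by DESeq2, 172 by glmTreat against a log2 fold change of 1, and 1253 to 1556 with 1 library left out. Of the factors, 3 of 8 were called by edgeR (14.8% of all tested genes), 5 of 8 by DESeq2 (24.3%) and 5 of the 6 above the FPKM minimum, without Pou3f4 and Irx1, by limma-trend on log2(FPKM + 1) (28.5%), the additional calls being Foxa2 and Nkx2-2 in both. By glmTreat 0 were called (0 of the 8 at an unadjusted p under 0.05). Of the 10 genes called in the other lists, glmTreat called 2. Correlations between deviations of same-letter columns were 0.00221 to 0.0261, so the data give no sign that the letters, used as a replicate block, pair the libraries. With that replicate block 1232 genes were called, and 2 of the 8 factors, Isl1 and Neurod1; Irx2, Scg5, Tle5 and Ssbp2 lost their calls. Isl1 and Neurod1 were called in 18 of 19 alternatives each, all but glmTreat, and Irx2 in 10 of 19. With 1 library left out Pou3f4 ran from -1.01 to 0.61, the sign turning without DMSO replicate A; the cause was not tested. No other factor changed sign in any alternative. Library totals in place of TMM moved the median of all tested genes from 0.041 to 0.246, with 1630 genes called higher and 796 lower in place of 1053 and 1177; the split was 1857 and 1810 by DESeq2. Relative to that median, Isl1 was at -0.76, Neurod1 at -1.14 and Irx2 at -0.68, close to the -0.76, -1.15 and -0.68 with TMM. Irx1 and Pou3f4 had the fewest counts of the 8 (56 to 398 per library) and the widest intervals. Thinned to the lowest total they were at 1.06 and -0.38, close to 1.01 and -0.42 with all counts.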
